A study of Mus musculus with 6 samples.

Results

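This account covers the liver transcripts of Egfr, which encodes the epidermal growth factor receptor, of the 3 other ERBB receptor genes Erbb2, Erbb3 and Erbb4, and of 6 ligand genes, namely Areg, Ereg, Btc, Hbegf, Tgfa and Egf. The 10 genes were chosen by name. They were matched to probe sets through the platform annotation, and a gene was represented by the probe set naming it alone that had the highest mean signal over all arrays. Of the 10, 9 were matched, through 20 probe sets, among 18193 genes in all, and Areg was not analysed here. Of the 9, 8 were measured, which means brighter than a floor of 221.4 (the 50th percentile over every signal on the arrays) on at least 1 array. Only 4 of them, Egfr, Erbb3, Btc and Tgfa, were above it on all 6 arrays. Erbb4 was at the floor throughout, and Erbb2, Ereg, Hbegf and Egf were above it on some arrays. In the whole series 13988 genes were measured.

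The livers came from male mice of the inbred C57BL6/J strain, which were 6 to 8 weeks old at the start, and no genetic change is named for any group. The groups were fast-food diet with canertinib, fast-food diet, and chow, each kept for 2 months or for 5 months in separate studies. By weight, 21% of the fast-food diet was fat and 34% sucrose, cholesterol made up 0.2%, and the mice drank 18.9 g/L glucose and 23.1 g/L fructose in water. In the shorter study the mice ate canertinib with their food throughout, for a daily dose put at about 80 mg/kg. In the longer one, intraperitoneal doses of 80 mg/kg were given on 5 days of each of the final 5 weeks, while the fast-food group got PBS as vehicle. No injection is named for the 5-month chow group. Route, length of treatment and length of study therefore cannot be told apart between the studies. If the 5-month chow mice were not injected, diet and injection cannot be told apart in the 5-month comparisons with chow. Each group was 1 array that received RNA pooled from 3 to 4 livers. No single comparison had a replicate or a test, and precision is limited by how few arrays there are. Values are MAS5 signals on a linear scale, and differences are log2 differences of signals raised to the floor.

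ERBB receptors sit in the cell membrane and pair up when a ligand binds, after which their kinase domains phosphorylate each other and recruit adaptor proteins to the RAS, ERK, PI3 kinase and STAT pathways. ERBB2 has no known ligand of its own and ERBB3 has a very weak kinase, so both signal mainly as partners. In adult rodents hepatocytes carry much EGFR and also ERBB3, and EGFR ligands are known for their part in liver regeneration. Canertinib binds the ERBB kinases covalently and blocks them. It acts on the proteins, which were not measured here.

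The 250 bases before the RefSeq start of Egfr, at chr11:16751953-16752202 on the plus strand of GRCm38.p6, are shown because Egfr carries the differences described below. Capitals mark a GC box (GGGCGG, here on the opposite strand as CCGCCC), a site that SP1-type factors are known to bind.

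Egfr: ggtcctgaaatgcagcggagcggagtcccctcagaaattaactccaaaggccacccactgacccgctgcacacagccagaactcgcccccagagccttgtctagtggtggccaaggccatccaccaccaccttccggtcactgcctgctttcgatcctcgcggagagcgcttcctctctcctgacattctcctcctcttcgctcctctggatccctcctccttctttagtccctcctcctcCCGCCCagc

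The window held 1 GC box on either strand, at bases -9 to -4 from the start, and no TATA box, searched as TATAAA on both strands. Of 32851 mouse promoter windows of the same length, 32.7% held a GC box and 12.4% a TATA box. Its G and C content was 60.8%, against a median of 52.4% over all windows. Windows of 7 of the 10 genes were searched, and those of Erbb3, Ereg and Hbegf are not reported here. Among the 7, besides Egfr, Tgfa had 2 GC boxes and 69.2% G and C, and Areg had 1 GC box and 1 TATA box. The windows of Btc, Egf, Erbb2 and Erbb4 had neither motif. These are matches of letters, not measured binding sites.

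On the chosen probe sets, Egfr was the only member that differed by 2-fold or more with both the diet and the drug, in opposite directions. At 2 months its signal was 6350.4 in the canertinib liver, 2625.7 in the fast-food liver and 7035.1 in the chow liver. At 5 months it was 10515.6 with canertinib, 1682.7 with the fast-food diet and 8635.4 with chow. In each study the fast-food array was lowest, and the canertinib and chow arrays lay close together. With canertinib, Egfr was 2.42-fold higher than with the fast-food diet alone at 2 months and 6.25-fold higher at 5 months, log2 differences of 1.27 and 2.64. With the fast-food diet the log2 differences from chow were -1.42 and -2.36. The signal was thus 2.68-fold and 5.13-fold higher in chow liver.

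Ranked over the 13988 measured genes, Egfr was number 247 from the highest with canertinib at 2 months and number 21 at 5 months. With the diet it was number 57 and number 17 from the lowest. The pair of chow arrays, which differ in age and study but not in diet or drug, served as a yardstick. Between them Egfr itself differed by 0.30, higher at 5 months. Differences of either sign as large as that of Egfr with canertinib were seen for 147 genes (1.05%) of the chow pair in the case of the 2-month value and for 4 genes (0.0286%) in the case of the 5-month value. For the diet the corresponding numbers were 79 genes (0.565%) and 7 genes (0.05%).

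A limma fit over all 6 arrays, with treatment and study as terms, treats the 2-month and 5-month values as repeats and has 2 residual degrees of freedom. It gave Egfr a log2 difference of 1.96 ± 0.32 (SE) for canertinib with diet against diet, with a Benjamini-Hochberg adjusted p of 0.0792 in limma over all measured genes, and it was higher in both studies. For diet against chow the difference was -1.89 ± 0.32 (SE), with an adjusted p of 0.193 in limma, and it was lower in both studies. Neither passed the threshold of 0.05. The value for canertinib with diet against diet passed it when no floor was set, at an adjusted p of 0.0225 in limma. Over the 9 alternatives its adjusted p was 0.0225 to 0.434 in limma. For canertinib with diet against chow, limma gave 0.07 with a 95% interval of -0.74 to 0.87 and an adjusted p of 0.960, so differences of up to about that size in either direction were not resolved.

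Compared directly with chow, Egfr had log2 differences of -0.15 at 2 months and 0.28 at 5 months in the canertinib liver. On this probe set both are smaller than the 0.30 between the chow arrays, and the other probe sets of Egfr differ in sign and size. Among all measured genes, 61% and 39% differed by at least as much between the chow arrays. These comparisons share their arrays with those of the diet and the drug.

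The array carried 7 probe sets for Egfr, of which 6 were above the floor on all 6 arrays and 1 (1457563_at) was at the floor on all. The 4 brightest showed the pattern described. For canertinib against fast-food diet, the 6 probe sets gave log2 differences between -0.60 and 2.30 at 2 months and between -0.07 and 3.00 at 5 months, with 4 of 6 at least 2-fold higher each time. For the diet they lay between -1.85 and 0.03 at 2 months, with 3 at least 2-fold lower, and between -2.36 and -0.03 at 5 months, with 4 at least 2-fold lower.

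The widest span was that of 1424932_at, with 4217.2, 855.1 and 3080.3 in the canertinib, fast-food and chow livers at 2 months and 5573.6, 697.6 and 3164.2 at 5 months. Its log2 differences from chow in the canertinib liver were 0.45 and 0.82. The canertinib array was the highest of each study on 3 of the 4 brightest probe sets, namely this one, 1460420_a_at (0.25 and 0.33 against chow) and 1451530_at (0.40 and 0.59). By contrast, 1432647_at, which was designed from a different cDNA record, was nearly level. It read 716.4, 727.2 and 757.5 in the canertinib, fast-food and chow livers of the 2-month study and 868.3, 766.5 and 949.7 in those of the 5-month study. Its log2 differences with canertinib were -0.02 and 0.18, and with the diet -0.06 and -0.31. The dimmer 1454313_at, from the same record, had -0.60 and -0.07 with canertinib and 0.03 and -0.03 with the diet. Of the 2 probe sets of that record, 1432647_at thus shared the directions of the 4 brighter ones at 5 months only, with smaller differences. The other, 1454313_at, shared them at neither time. Which transcripts these 2 probe sets report was not tested. Averaged over all 7 probe sets, Egfr had 0.80 and 1.29 with canertinib and -0.76 and -1.04 with the diet, in the same directions but smaller and, at 2 months, under 2-fold.

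**Figure D1:**
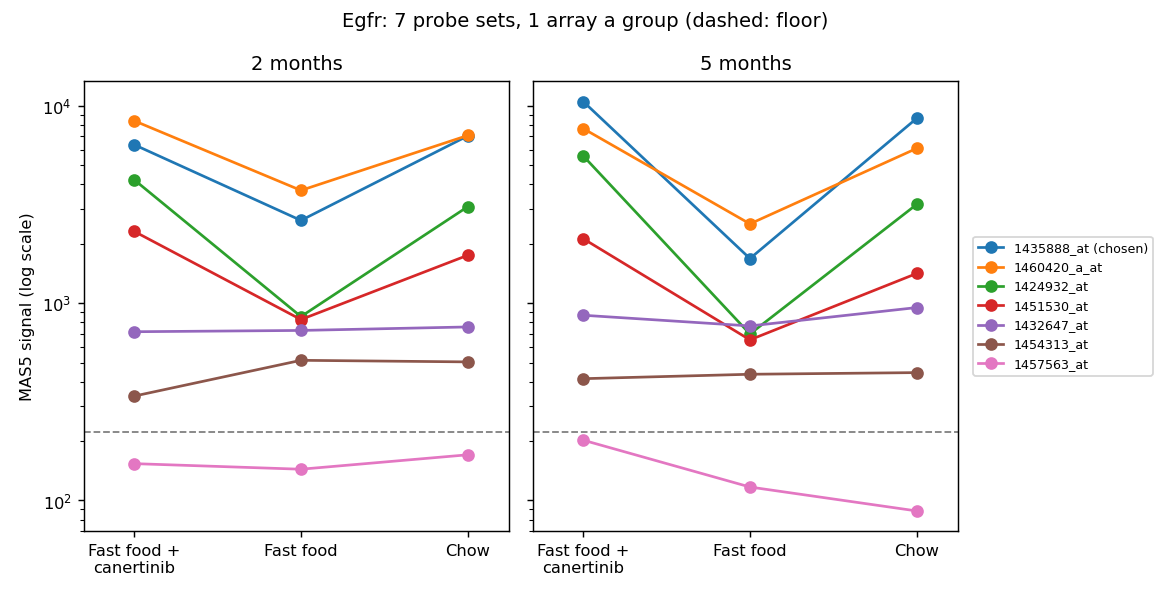
Signal of the 7 Egfr probe sets (log axis, MAS5 units) in the canertinib, fast-food and chow livers at 2 months (left) and 5 months (right), 1 array a group, with the floor of 221.4 dashed. The 4 brightest probe sets dip on the fast-food array in both studies. Of the others, 1432647_at dips slightly at 5 months only, 1454313_at does not dip, and 1457563_at stays under the floor.

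Erbb3, the kinase-poor partner of EGFR in hepatocytes, was the other receptor gene with a signal on all arrays. It had 3297.9 in the canertinib liver, 2583.8 in the fast-food liver and 3046.6 in the chow liver at 2 months. At 5 months the values were 4812.9, 3269.9 and 4664.7 in the same order of groups. The fast-food array was again the lowest of each study, but the whole span over the 6 arrays was 1.86-fold, against 6.25-fold for Egfr. The log2 differences were 0.35 and 0.56 with canertinib and -0.24 and -0.51 with the diet. The chow arrays differed in Erbb3 by 0.61, higher at 5 months, which is more than any of these. Limma gave 0.45 ± 0.13 (SE) with canertinib against diet, at an adjusted p of 0.213, and -0.38 ± 0.13 (SE) with the diet, at an adjusted p of 0.443 in limma. The second Erbb3 probe set was at the floor on all arrays.

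Erbb2, the partner receptor without a ligand, was above the floor on 1 array, the canertinib liver at 2 months. Its signals were 247.1 with canertinib, 132.9 with the fast-food diet and 55.9 with chow at 2 months, and 108.3, 116.8 and 114.8 at 5 months. Against the floor this makes it at least 1.12-fold higher in the 2-month canertinib liver than in the fast-food or the chow liver. The 5-month arrays gave no difference, all being at the floor. Erbb4, the neuregulin receptor, had between 6.4 and 19 on the 6 arrays, far under the floor, and no fold is given. This dimness limits what can be said, because 1 probe set reported each of these genes and signals of different probe sets cannot be set against each other.

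**Figure D2:**
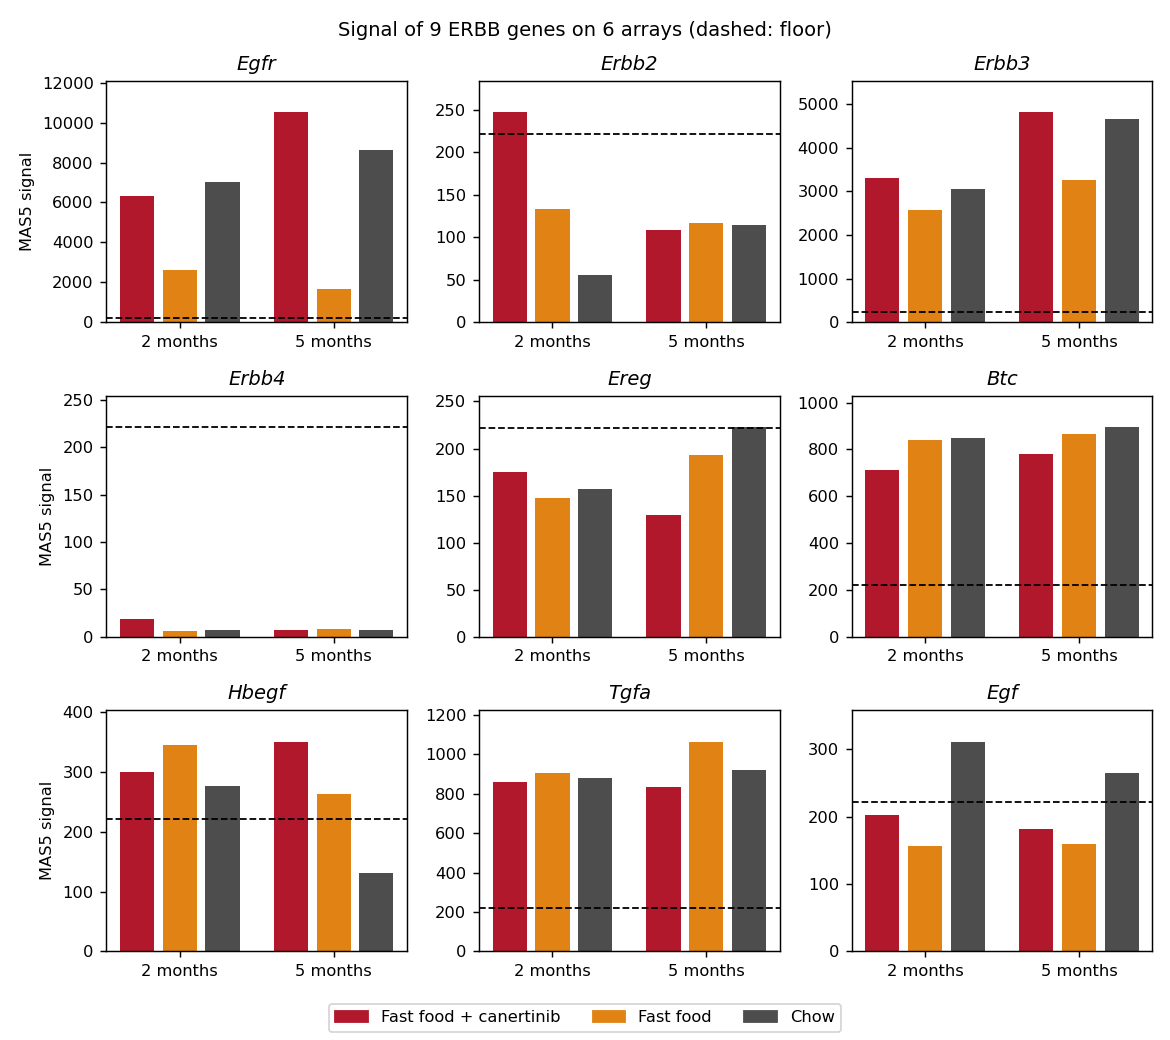
MAS5 signal of the chosen probe set of 9 ERBB genes on the 6 arrays (bars from 0, canertinib left of fast food and chow in each study, each panel with its own scale), with the floor of 221.4 dashed. Egfr spans 6.25-fold and Erbb3 1.86-fold, Btc and Tgfa are nearly level, and Erbb4 lies under the floor on every array.

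Among the ligands, Btc and Tgfa were well above the floor and varied little. Btc, which encodes betacellulin, a ligand of EGFR and ERBB4, had 711.6 in the canertinib liver, 842 in the fast-food liver and 847.8 in the chow liver at 2 months, and 778.3, 864.4 and 895.3 at 5 months. The canertinib array was the lowest of each study, by log2 differences of -0.24 and -0.15 from the fast-food array. The diet values were -0.01 and -0.05, and the whole span over the arrays was 1.26-fold. In limma the drug difference was -0.20 ± 0.18 (SE), with an adjusted p of 0.675.

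Tgfa encodes transforming growth factor alpha, an EGFR ligand made by hepatocytes during liver growth. On its chosen probe set it had 862 with canertinib, 904.2 with the fast-food diet and 880.6 with chow at 2 months, and 836.3, 1065 and 922.6 at 5 months. The log2 differences were -0.07 and -0.35 with canertinib and 0.04 and 0.21 with the diet. Its 3 probe sets disagreed. On 1421942_s_at the 2-month values were 720.2, 404.4 and 878.8, a log2 difference of 0.83 with canertinib and -1.12 with the diet, whereas its 5-month values gave 0.03 and -0.08. On 1450421_at the differences were 0.01 and 0.57 with canertinib and -0.37 and -0.21 with the diet. No direction for Tgfa held over the probe sets.

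Hbegf encodes heparin-binding EGF-like growth factor, a membrane-anchored ligand that proteases release. Its signals were 299.5 with canertinib, 345.6 with the fast-food diet and 275.9 with chow at 2 months, and 350.7, 263 and 131.1 at 5 months, the last being under the floor. The differences with canertinib were -0.21 at 2 months and 0.42 at 5 months, of opposite sign. With the diet it was 0.32 at 2 months and at least 1.19-fold higher at 5 months. In the 5-month canertinib liver it was at least 1.58-fold higher than in chow. The second Hbegf probe set read 347 with canertinib, 78.1 with the fast-food diet and 207 with chow at 2 months, and 407.3, 266.9 and 184.9 at 5 months. On that one the canertinib array was highest in each study, with a bound of 0.65 at 2 months and a difference of 0.61 at 5 months against the fast-food diet. The probe sets thus gave opposite signs for canertinib at 2 months.

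Egf, the gene of epidermal growth factor, which the kidney and salivary glands are known to make in quantity, was dim. It had 203, 157.1 and 311.4 in the canertinib, fast-food and chow livers at 2 months and 181.3, 160.1 and 265.1 at 5 months. Both chow arrays were above the floor and the 4 other arrays under it. Chow was at least 1.41-fold higher than either fast-food group at 2 months and at least 1.20-fold higher at 5 months. Ereg, the gene of epiregulin, lay between 129.2 and 222.8, with 1 array, the 5-month chow liver, just over the floor, so no fold of use can be given.

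Counted over the measured members, 1 of 8 was at least 2-fold higher and 0 lower with canertinib than with the fast-food diet at 2 months, where 3.55% of all measured genes were higher and 3.26% lower. At 5 months the counts were the same, beside 2.19% higher and 2.73% lower. With the diet against chow, 1 of 8 was lower by 2-fold or more and 0 were higher at 2 months, beside 1.98% higher and 1.55% lower of all measured genes. At 5 months the counts were again the same, beside 2.72% higher and 1.83% lower. In all 4 cases the member was Egfr. With canertinib and diet against chow, 0 of 8 passed 2-fold at 2 months, beside 3.8% higher and 2.74% lower, and 0 of 8 at 5 months, beside 2.82% higher and 2.72% lower. A single gene is no evidence about the family.

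Among members with a value, that is, with 1 or both arrays of a comparison over the floor, the median log2 difference was 0.04 over 6 members and 0.42 over 5 members with canertinib, and -0.12 over 6 and -0.05 over 7 with the diet. Over all genes with a value in the same sense, the medians were -0.00 and -0.01 with canertinib and -0.01 and -0.03 with the diet. In limma, 0 of 8 members passed an adjusted p of 0.05 for canertinib against diet, where 0.715% of all measured genes did, or for diet against chow, where 0.0286% did. The same was found for canertinib with diet against chow, where 0.765% did. At an unadjusted p under 0.05 these were 2 members (Egfr and Erbb3), 3 members (Egfr, Erbb3 and Egf) and 1 member (Egf). The unadjusted shares over all genes were 14.8%, 9.87% and 15.6%. The Egf values rest on arrays set to the floor, which understates their spread.

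**Figure D3:**
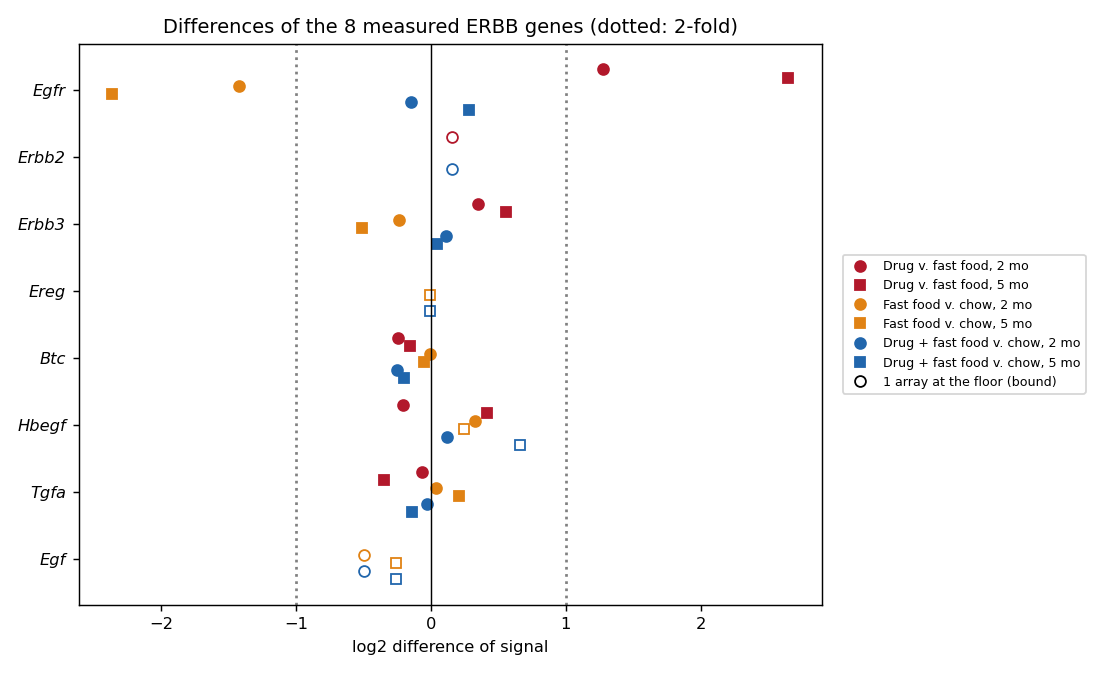
Log2 difference of signal for the 8 measured ERBB genes in 6 comparisons (circles 2 months, squares 5 months, open symbols where 1 array was at the floor and the value is a bound), with 2-fold dotted. Egfr alone passes 2-fold, to the right with canertinib (1.27 and 2.64) and to the left with the diet (-1.42 and -2.36).

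The livers also differed in cell type markers and in RNA quality, and fewer cells of a type cannot be told apart from less RNA per cell in whole liver. All 12 measured hepatocyte markers, of 15 listed and among them albumin and Hnf4a, were above the floor on every array. Their median difference was 0.29 and 0.39 with canertinib, where 11 of 12 were higher each time, and 0.10 and -0.34 with the diet, where 7 and then 0 of 12 were higher. Their summed signal was 543839 with canertinib, 413016 with the fast-food diet and 366071 with chow at 2 months, and 428378, 305024 and 395716 at 5 months. Their differences in these 4 comparisons lay between -0.82 and 1.03.

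Macrophage markers were at least 2-fold higher with the diet for 8 of 15 genes at 2 months and 9 of 15 at 5 months. Of all measured genes, 1.98% and 2.72% were. The macrophage medians with the diet were 1.08 over 14 genes and 1.68 over 15. Their summed signal was 46287.5, 37414.4 and 15995.1 in the canertinib, fast-food and chow livers at 2 months and 53222.7, 49550.5 and 15804.8 at 5 months. The 10 stellate cell markers gave medians of 0.81 over 9 genes and 1.37 over 10 with the diet. With canertinib the medians were -0.23 over 9 genes and -0.69 over 10. Their sums were 24839.8, 23843.7 and 13127.5 at 2 months and 18538.9, 31234.8 and 11164.4 at 5 months. At 2 months the sum was higher with canertinib than with the fast-food diet, although 7 of 9 genes were lower. The 2 higher ones were Dcn (0.31) and Rgs5 (1.01), so the sum does not stand for the list. The 7 measured neutrophil markers of 10 listed had medians of 1.72 and 1.58 with canertinib. Sums were taken over the 8 matched to a probe set, 1 of them at the floor on all arrays. They were 16013.1 with canertinib against 3776.1 with the fast-food diet at 2 months, and 17317.7 against 3138.4 at 5 months. Endothelial markers, all 10 measured, had medians of -0.15 over 10 genes and -0.29 over 9 with canertinib. With the diet the medians were 0.27 and 0.53, each over 9 genes. Of 10 cholangiocyte markers listed, 5 were measured. Their medians were 0.51 over 3 genes and 0.37 over 5 with canertinib, and -0.31 over 3 and 0.06 over 4 with the diet. Bounds are among the values behind some of these medians. RNA quality was read from actin, whose 3' control probe set minus its 5' one gave log2 differences of 1.19, 0.85 and 0.94 in the canertinib, fast-food and chow livers at 2 months and 1.12, 0.98 and 0.85 at 5 months. For Gapdh the same difference was -0.20, -0.30 and -0.18 at 2 months and -0.14, -0.22 and -0.09 at 5 months. The canertinib array was highest in each study for actin, and the chow array for Gapdh. The part of cell makeup and of RNA quality in the Egfr differences was not tested.

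The 5 genes whose log2 signals over the 6 arrays lay closest to those of Egfr were found among 9873 genes above the floor on all arrays, by the root-mean-square difference of profiles centred on their own means. They were the cytochrome P450 gene Cyp2c54 (0.33), the vasopressin receptor gene Avpr1a (0.35), the complement gene C8b (0.36), and Plcxd2 (0.41) and Smim13 (0.45). With canertinib, Cyp2c54 had 1.13 and 2.49, Avpr1a 1.30 and 2.15, and C8b 1.06 and 2.39. With the diet, Cyp2c54 had -0.61 and -2.73, Avpr1a -0.90 and -1.33, and C8b -1.58 and -2.99. All 5 were higher with canertinib and lower with the diet in both studies, as their choice for likeness to Egfr implies. The 3 other members above the floor on every array spanned less than 2-fold, and no like genes were sought for them.

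**Figure D4:**
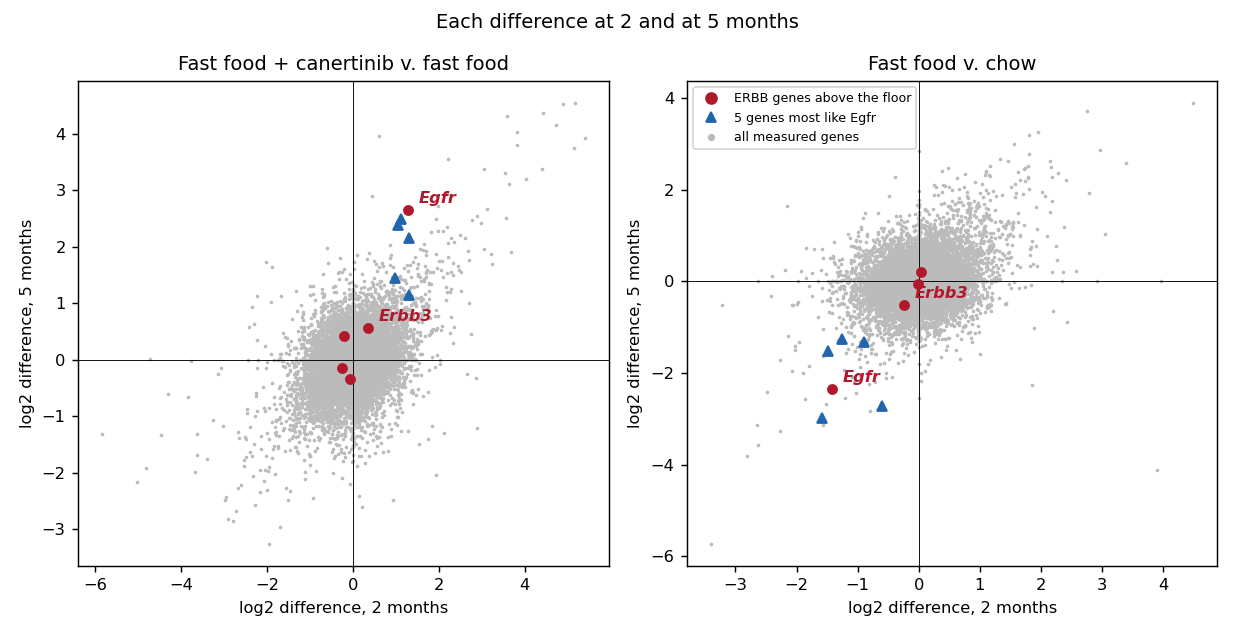
Log2 difference at 5 months against that at 2 months for canertinib with diet against diet (left) and diet against chow (right), for all 13988 measured genes (grey), the ERBB genes above the floor (red circles) and the 5 genes most like Egfr (blue triangles). Egfr lies at 1.27 and 2.64 on the left and at -1.42 and -2.36 on the right. It lies farther out on both axes than the other ERBB genes shown. Other measured genes lie farther out on each axis, Egfr being number 247 and number 21 from the highest on the left. On the right it is number 57 and number 17 from the lowest.

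Other receptor tyrosine kinases gave a setting for Egfr. Of 31 listed, 27 were measured. With canertinib, 2 of 27 passed 2-fold at 2 months, both higher, and 1 of 27 at 5 months, which was lower. With the diet, 1 of 27 was higher by 2-fold or more each time, and 1 was lower at 2 months. Of all measured genes, 3.55% were higher and 3.26% lower with canertinib at 2 months, and 2.19% and 2.73% at 5 months. With the diet these shares were 1.98% and 1.55% at 2 months, and 2.72% and 1.83% at 5 months. The same shares apply to the counts of the lists below. Medians were 0.49 and -0.06 with canertinib and -0.03 and 0.17 with the diet. None lay beyond Egfr in its direction, the nearest being Ephb4 at 2 months, with 1.13 for canertinib and -1.31 for the diet, and Met, the receptor for hepatocyte growth factor, at 5 months, with 0.76 for canertinib and -0.73 for the diet. At 5 months Ephb4 had the opposite signs, with -1.27 for canertinib, as the gene counted as lower, and 0.47 for the diet. Ephb4 is singled out after its values were seen. At 2 months Met had 0.67 with canertinib and 0.06 with the diet. Fgfr1, a fibroblast growth factor receptor gene, had 1.10 and 0.15 with canertinib and -0.19 and 0.08 with the diet. Ryk, which encodes a WNT-binding receptor, had 0.85 and 0.64 with canertinib and -0.11 and -0.50 with the diet.

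Of 13 further ligand and shedding genes, 9 were measured, and with values raised to the floor none reached 2-fold with canertinib or with the diet at either time. For Epgn and Nrg2 at 2 months the values with canertinib are lower limits just under 2-fold, so a 2-fold difference is not shown to be absent. Epgn, the gene of epigen, another EGFR ligand, was above the floor on 1 array, with 437.6 in the canertinib liver against 123.9 in the fast-food liver at 2 months, a bound of 0.98. Nrg2, a neuregulin gene, had a bound of 0.99 at 2 months and a difference of -0.05 at 5 months with canertinib. Timp3, which encodes an inhibitor of the sheddase ADAM17, had -0.43 and -0.996 with canertinib and 0.21 and 0.92 with the diet. The medians of this list were 0.18 and -0.13 with canertinib and -0.07 and 0.25 with the diet.

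Adaptor and cascade genes downstream of the receptors had medians of 0.27 and 0.23 with canertinib and -0.09 and -0.13 with the diet. Of 21 measured, 1 was at least 2-fold higher with canertinib at each time. This was Stat3, the transcription factor gene of cytokine and growth factor signals, with 1.45 and 1.01, and -0.49 and -0.34 with the diet. Grb2, which links receptors to RAS, had 0.59 and 0.54 with canertinib and 0.43 and 0.02 with the diet. Gab2, a docking protein gene, had -1.21 with canertinib at 5 months, was at the floor on both arrays at 2 months, and with the diet had -1.99 as a bound at 2 months and -0.49 at 5 months. Gab2 was thus the 1 member of the list at least 2-fold lower, with canertinib at 5 months and with the diet at 2 months.

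Genes of receptor turnover and inhibition had medians of 0.11 and -0.03 with canertinib and -0.06 and -0.03 with the diet, and all 24 were measured. None passed 2-fold with canertinib at 2 months or with the diet at 5 months, and 1 was lower by 2-fold or more with the diet at 2 months. The only one past 2-fold with canertinib at 5 months was Cbl, whose product marks activated EGFR for degradation, with 0.66 and 1.06, and -0.15 and -0.83 with the diet. Errfi1, a direct inhibitor of the EGFR kinase, had signals of 34431.5, 26121.3 and 28942.9 in the canertinib, fast-food and chow livers at 2 months and 40908.5, 25418.7 and 29261.8 at 5 months. Its differences were 0.40 and 0.69 with canertinib and -0.15 and -0.20 with the diet, and the canertinib array was the highest of each study. Epn1, an endocytosis adaptor gene, had 0.77 and 0.34 with canertinib and 0.17 and 0.01 with the diet.

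The ERK response list had 16 measured genes. With canertinib, 2-fold higher values or more were found for 2 genes at 2 months and 3 genes at 5 months, and 1 gene, Ccnd1, was lower by 2-fold or more each time. With the diet there was 1 higher and none lower at 2 months, and 1 higher and 2 lower at 5 months. The cell cycle gene Ccnd1 had -1.66 and -1.12 with canertinib and 0.69 and 1.16 with the diet, opposite to Egfr in all 4. The AP-1 gene Junb had 1.62 and 1.07 with canertinib and -0.01 and -0.70 with the diet. Ier3, an immediate early gene, had 1.78 as a bound and 1.08 with canertinib. The list medians were -0.23 and -0.03 with canertinib and 0.02 and -0.09 with the diet.

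**Figure D5:**
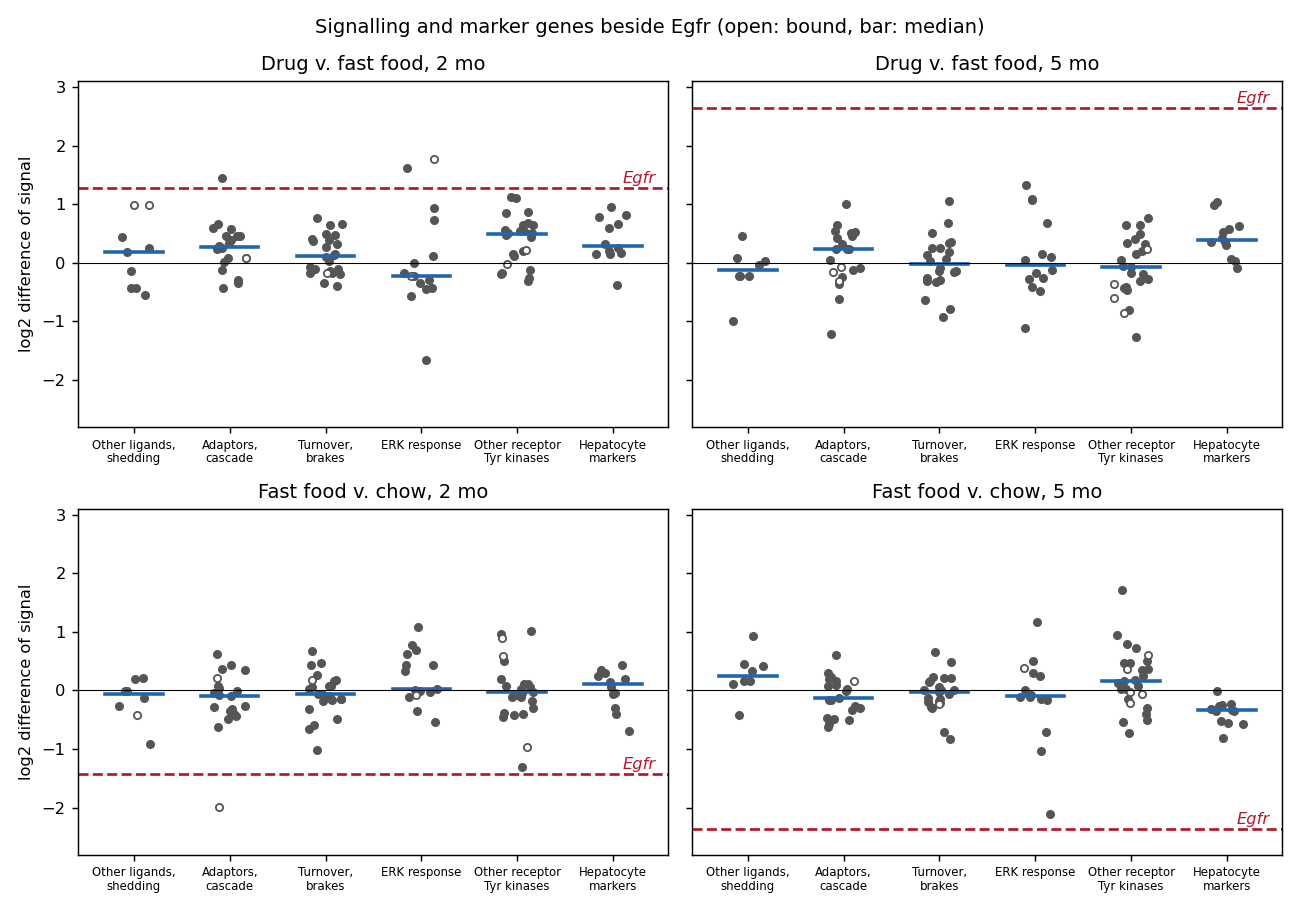
Log2 differences of the measured genes of 6 lists (points, open where 1 array was at the floor, bar at the median) beside Egfr (red dashed line), with canertinib against fast food above and fast food against chow below, 2 months left and 5 months right. List medians lie between -0.34 and 0.49, while Egfr is at 1.27 and 2.64 above and at -1.42 and -2.36 below. Single genes lie beyond Egfr at 2 months. With canertinib these are Ier3 (1.78, a bound), Junb (1.62) and Stat3 (1.45), and with the diet Gab2 (-1.99, a bound).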

How the data were processed

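Liver RNA of 6 groups was measured on 1 Affymetrix array each. The deposited intensity values are MAS5 signals per the submitters' processing notes, and no MAS5 version is given in the sources used here. On the 2-month canertinib array the trimmed mean of the values was 500 (2% cut at each end), and it was not computed for the other arrays. Of 45101 probe sets, 34958 name 1 gene in the platform annotation, and symbols were updated through gene IDs to RefSeq (GRCm38.p6), which also gave the promoter windows. Signals were raised to the 50th percentile (221.4) and log2 transformed. A difference with 1 array at the floor is a bound. Calls were made at 2-fold, and limma 3.58.1 in R 4.3.3 was fitted to all 13988 measured genes with Benjamini-Hochberg adjustment and tested on simulated data. Python 3.11.15 with NumPy 2.4.6, pandas 2.3.3 and matplotlib 3.10.9 did the rest.

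All 10 members are named. From each other list the text gives the 3 measured genes with the largest absolute mean difference over both canertinib comparisons. Markers are given as counts and medians, and genes named beyond this are marked as chosen after their values were seen or follow from counts. For Egfr the 5 genes with the most similar profile are named. The members and lists were chosen with earlier results of these data known. Some listed genes were not analysed here. Alternatives were quantile normalization, median centring, 3 other floor settings, the mean over probe sets, dropping the probe sets that may hit several transcripts (by suffix), 1.5-fold and 3-fold thresholds, and 2 other limma fits.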

Additional observations from a re-analysis of the deposited data

Results flagged for a closer look

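The check covered the members and the 3 genes named by rule from each list other than the markers. It used only differences with both arrays above the floor. Among these, log2 differences had opposite signs in the 2-month and the 5-month study for 4 results. Ephb4, singled out after its values were seen, was outside the check. Its signs also turned, with 1.13 and -1.27 for canertinib and -1.31 and 0.47 for the diet. Each study had 1 array a group, so the difference between the studies was not tested. Egfr in the canertinib liver against chow had -0.15 and 0.28, which lie 0.43 apart. The 3 other bright Egfr probe sets were higher with canertinib than with chow in both studies, by 0.25 to 0.45 at 2 months and 0.33 to 0.82 at 5 months. Hbegf with canertinib against the fast-food diet had -0.21 and 0.42, which lie 0.62 apart, and its second probe set was higher with canertinib in both studies. Met with the diet had 0.06 and -0.73, a change of -0.79 between the studies, and between the chow arrays Met was 0.84 higher at 5 months. Fgfr1 with the diet had -0.19 and 0.08, which lie 0.27 apart, less than the typical spread of 0.31 of a gene between the chow arrays (a robust SD).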

How the results depend on the processing

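Egfr kept its direction with canertinib and with the diet under all 7 alternatives at each time. It moved by more than the chow-pair spread of 0.31 under 1 of them, the mean over its 7 probe sets, with 0.80 and 1.29 for canertinib and -0.76 and -1.04 for the diet. Against chow this mean made the 2-month value of the canertinib liver 0.04 in place of -0.15. In limma, leaving out the floor took canertinib against diet (1.96) past the threshold, at an adjusted p of 0.0225, and no other alternative changed a limma call for Egfr. The number of members at least 2-fold different was 0 in place of 1 for canertinib and for the diet at 2 months, both with the mean over probe sets and at 3-fold. With no floor it was 2 in place of 1 for the diet at 5 months and 1 in place of 0 for canertinib with diet against chow at each time. With a floor at the 40th percentile, and at 1.5-fold, it was 1 in place of 0 for canertinib with diet against chow at 5 months. Of 210 values of other members under alternatives, 191 moved by less than the spread, and the 19 others were of Erbb2, Egf, Ereg, Hbegf and Tgfa, which were near the floor or had probe sets that disagree. Among these, signs turned for Hbegf (0.22) and Tgfa (0.26) with canertinib at 2 months and Tgfa at 5 months (0.08) and with the diet at 2 months (-0.48), all with the mean over probe sets. No value past 2-fold changed sign under an alternative run. The labels give no replicate numbers, so pairing was possible by study alone. With only the 2 groups compared and study as a block, limma gave Egfr adjusted p-values of 0.434 for canertinib against diet, 0.637 for diet against chow and 0.867 for canertinib with diet against chow. Low signal limits Erbb2, Erbb4, Ereg and Egf, for which the arrays give bounds or nothing.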
